A study of Mus musculus with 31 samples.

Results

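The brain response to hypoxia-ischemia (HI) in newborn mice was measured 12 h after the insult on 3 of the 31 arrays of the series, those titled as the 12 h time point of the HI experiment without MgSO4. The titles of these arrays also carry the tag RV PBS. NMRI mice aged 5 days had the right carotid artery tied under isoflurane anesthesia and then breathed air low in oxygen, the Rice and Vannucci procedure. Time was counted from the end of hypoxia. The control mice came from the same litters. They received no intervention according to the methods, while the labels call them naive and given PBS. By the methods, anesthesia and surgery differ between the pools together with HI and cannot be told apart from it. Each array was a separate pair of pools, and each pool held RNA from 6 hemispheres on the side of the ligature, which the labels give as 3 males and 3 females. The HI pool was labelled with Cy5 and the control pool with Cy3 on all 3 arrays, and no array had the dyes swapped, so any preference of a probe for one dye enters its ratio. On these arrays the label for the treatment of the Cy5 RNA names MgSO4, which disagrees with the titles, the sample source and the methods. The Cy5 RNA is treated here as HI without MgSO4, and all values depend on that reading. Other arrays used for comparison were the 3 arrays of HI against control at 3 h and the 4 arrays of uninjured mice given MgSO4 (600 mg/kg) against their own controls at 12 h.

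Hypoxia-ischemia deprives tissue of oxygen and glucose together, and in the immature brain it is followed by an early wave of transcription in neurons and glia and by a later inflammatory phase. In that phase microglia and astrocytes release chemokines, small secreted proteins that attract leukocytes, and interferons and cytokines switch on further gene programs. The newborn brain makes its own cholesterol, which growing membranes and myelin need, because lipoproteins hardly cross from the blood. A sample of whole hemisphere mixes all these cells, and fewer cells of a type cannot be told apart from less RNA in each of them.

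Each value is the log2 ratio of the HI signal to the control signal of an array, so that 1 stands for a doubling and 0 for equal signals. Of 39429 probes, 24778 were well above background in at least 1 channel on at least 2 arrays and were tested, and they include 15010 named genes, each valued by its brightest tested probe, except that the 15 highest and 15 lowest were ranked over probes. The share of spots above background was 59.9% to 64.4% in the control channel and 60.3% to 66.5% in the HI channel, no spot was saturated, and the number of arrays limits the precision. Across probes, the ratios of array 1 correlated with those of array 2 at 0.65 and with those of array 3 at 0.21, and arrays 2 and 3, which share a slide, correlated at 0.53.

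Ccl4 and Lilrb4a rose 12 h after HI and were the only genes past the adjusted test. They are 2 of 24778 probes (0.00807%) and 2 of 15010 named genes (0.0133%) at a Benjamini-Hochberg adjusted p under 0.05 in limma and a fold change of 1.5 or more, and no probe fell. At an unadjusted p under 0.05 with the same fold change there were 2629 probes (10.6%), of which 1567 (6.32%) were higher and 1062 (4.29%) lower, and 1741 probes had an adjusted p under 0.1. Among named genes, 1554 of 15010 (10.4%) passed in this way, 953 (6.35%) were higher and 601 (4%) were lower at the unadjusted p. Genes in these groups are described below as higher or lower at the unadjusted p, and, apart from Ccl4 and Lilrb4a, they do not pass the adjusted test. These shares, 6.35% higher and 4% lower, are the background for each list count at 12 h. When the variance of a probe was estimated together with the 3 h HI arrays, 2324 probes (9.38%) and 1389 genes (9.25%) passed the adjusted test, and 835 genes (5.56%) rose and 554 (3.69%) fell in that fit. This shared-variance fit takes the spread of a probe to be equal at both times, which was not tested. Across probes the 3 h arrays correlated at 0.56 to 0.61, and the 12 h arrays at 0.21 to 0.65. All calls given below from this fit rest on that assumption. With 1 array left out the adjusted test called 119 probes without array 1, 20 without array 2 and 3927 without array 3, and Ccl4 and Lilrb4a were called each time. The median ratio over all tested genes was 0, with quartiles of -0.23 and 0.24. The share of higher probes at the unadjusted p was 59.6%, and it was 81.9% after normexp background correction and 76.6% without background subtraction.

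Ccl4 encodes a chemokine of macrophages and microglia that attracts monocytes and lymphocytes. Its control signal was 40.2, 30.9 and 29.9 on the 3 arrays, and its HI signal was 659, 910 and 475. The log2 ratios were 4.04, 4.88 and 3.99, with a mean of 4.30 ± 0.50 (SD, n = 3 arrays) or 19.7-fold (adjusted p = 0.048, limma). Every HI signal lay far above every control signal. The mean was 2.25 after normexp correction.

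Lilrb4a encodes an inhibitory receptor of the immunoglobulin superfamily on myeloid cells. Its log2 ratios were 3.38, 4.25 and 3.81, with a mean of 3.82 ± 0.44 (SD, n = 3; adjusted p = 0.048, limma). The HI signals were 220, 190 and 170. The control signals, of 21.1, 9.96 and 12.1, were not well above background on any array, so that the probe was tested only through the HI channel. With the lowest signal above background of each array in place of dimmer ones, the increase was at least 9.96-fold on processed signals scaled between arrays. The mean was 1.11 after normexp correction. A second Lilrb4a probe had the same direction. At 3 h after HI, Lilrb4a had ratios of 1.15, 1.03 and 0.76, below all 3 values at 12 h, whereas Ccl4 had ratios of 4.91, 3.99 and 3.20, a range that overlaps the one at 12 h.

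Idi1 encodes the isomerase that makes dimethylallyl diphosphate in the sterol pathway, and it was the brightest of the 15 leading lower genes. Its control signal was 9940 to 15000 and its HI signal 4420 to 5430, with no overlap. The ratios were -1.47, -1.17 and -1.07, with a mean of -1.23 ± 0.21 (SD, n = 3), a 2.35-fold lower level that did not pass the adjusted test (adjusted p = 0.079, limma). It passed that test in the shared-variance fit (adjusted p = 0.0071).

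**Figure D1:**
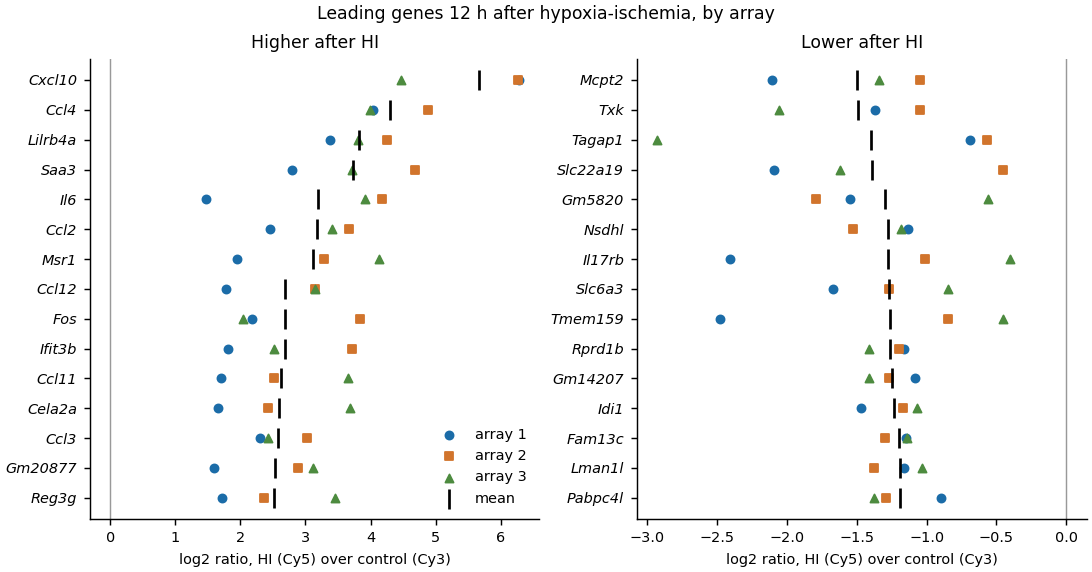
Leading genes of HI against control at 12 h. Each point is the log2 ratio of HI to control on 1 of 3 arrays, for the 15 genes with the highest and the 15 with the lowest mean among those with a single sign on all arrays. Ccl4 (mean 4.30) and Lilrb4a (mean 3.82) are the 2 genes past the adjusted test, and the genes at the lower end reach -1.50.

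Of the other leading genes that were higher, most encode secreted signals. Cxcl10, a chemokine induced by interferon, had the largest mean, with ratios of 6.28, 6.27 and 4.47 (mean 5.67 ± 1.04, SD, n = 3; adjusted p = 0.0748). Its control signals, of 7.02, 9.33 and 23.9, were well above background on 1 array, and its HI signals were 547, 721 and 529. The HI signals exceeded every control signal, and array 3, with the lowest ratio, had the highest control signal.

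Saa3, an acute phase protein, had ratios of 2.79, 4.68 and 3.71 and was at least 4.67-fold higher, its control signals being not above background. Il6, a cytokine of the acute phase, had ratios of 1.47, 4.18 and 3.91 and was at least 2.11-fold higher. The Il6 signal was low on array 1 (19.7 in HI) and higher on the other arrays (82.8 and 43.2). Msr1, a scavenger receptor of macrophages, had ratios of 1.95, 3.29 and 4.13, a bound of at least 2.16-fold. Cela2a, Gm20877 and Reg3g completed the 15 highest with bounds of 1.20-fold to 1.47-fold. Cela2a, a pancreatic elastase gene, had a mean of 3.04 on the 4 MgSO4 arrays too, against 2.59 after HI. Gm20877 had a mean of 1.36 on the MgSO4 arrays and of 2.53 after HI, a difference that did not pass (adjusted p = 0.513, limma). Reg3g had a mean of -0.23 on the MgSO4 arrays.

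The other leading genes that were lower had smaller ratios. Slc6a3, the dopamine transporter, had ratios of -1.67, -1.27 and -0.85, with control signals of 1410, 888 and 596. Rprd1b, which encodes a protein that binds the tail of RNA polymerase II, had -1.16, -1.20 and -1.41 on this probe, and its other tested probe had the opposite sign. Fam13c had -1.15, -1.30 and -1.14. These genes were well measured in both channels and were lower on every array, with adjusted p = 0.079 for each. On the uninjured MgSO4 arrays Slc6a3 had 0.31, 0.69, -1.24 and 0.35. Its difference between HI and MgSO4 did not pass (adjusted p = 0.367, limma), nor did those of Rprd1b and Fam13c (0.252 each). Mcpt2, Txk and Pabpc4l were below background after HI on all arrays, and their decreases were at least 1.21-fold, 1.67-fold and 2.03-fold. Tagap1, Il17rb and Tmem159 were each far lower on a single array, at -2.93, -2.41 and -2.48, than on the other arrays.

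**Figure D2:**
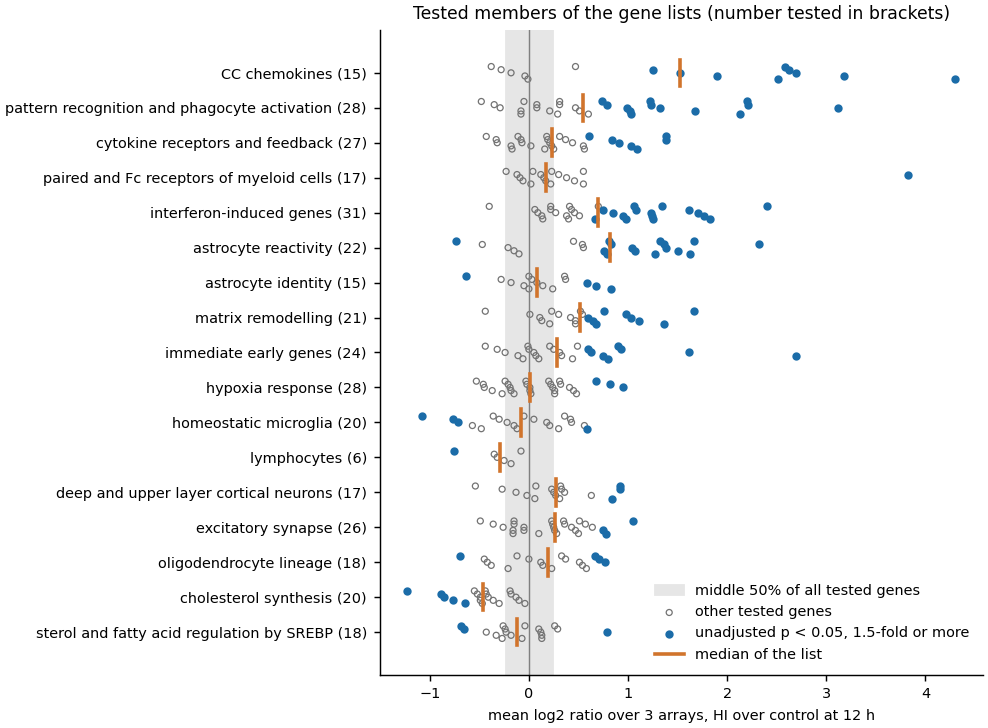
Mean log2 ratios of HI to control at 12 h in the gene lists. Each point is a tested gene and each bar the median of its list, and the line at 0 is also the median of all 15010 genes. CC chemokines (median 1.52), astrocyte reactivity (0.82), interferon-induced genes (0.70) and phagocyte activation (0.55) lie to the right, and the 20 genes of cholesterol synthesis (-0.46) lie to the left.

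CC chemokines were the list with the highest median. Of 20 listed genes 15 were tested, 9 were higher at the unadjusted p and none was lower (6.35% and 4% of all genes), the median was 1.52, and 2 of the 15 were tested only because the HI channel was above background. Of the 13 above background in both channels on all arrays 7 were higher. Ccl2, which attracts monocytes, had ratios of 2.46, 3.67 and 3.41 (mean 3.18 ± 0.63, SD, n = 3), with control signals of 130, 102 and 72.8. Ccl12, its mouse relative, had 1.78, 3.15 and 3.14, and Ccl7, a further monocyte attractant, had 1.31, 3.18 and 3.03. Array 1 was the lowest for all of these.

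Ccl3, which shares receptors with Ccl4, had 2.30, 3.02 and 2.43. Ccl11, an eosinophil attractant, had 1.70, 2.52 and 3.66 with a bound of at least 1.51-fold. The same 9 genes passed the adjusted test in the shared-variance fit. The members that were not higher, among them Ccl24, Ccl27a and Ccl28, had means between -0.38 and 0.47. The list median was 1.05, 1.91 and 1.62 on the single arrays, 0.48 at 3 h and -0.07 on the MgSO4 arrays. After normexp correction it was 0.49, with 7 of 15 genes higher at the unadjusted p.

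Among CXC and CX3C chemokines 8 of 15 were tested, 3 were higher and none lower, and the median was 0.16. Of the 8, 2 were tested only through the HI channel. Among those above background in both channels on all arrays none was higher, and the median was -0.1. Beside Cxcl10 the higher ones were Cxcl1, a neutrophil attractant, with ratios of 1.49, 3.34 and 2.61, and Cxcl16 with 1.04, 1.21 and -0.02. Of 25 cytokines 11 were tested, 3 of them only through the HI channel, and Tnf, Lif and Il1a were among those too dim to test. At the unadjusted p 3 were higher and 1 was lower, against 1 and 1 among those above background in both channels on all arrays. Csf1, the growth factor of microglia, had ratios of 1.32, 1.67 and 0.88. Il1b, a cytokine released by activated microglia, had 1.61, 3.10 and 1.56 and was at least 1.69-fold higher. Il18, another cytokine of the same family, had -1.24, -1.06 and -0.66 and was the only tested cytokine lower at the unadjusted p. Of 27 tested cytokine receptors and feedback genes 7 were higher and none lower (median 0.23). After normexp correction 1 was higher, and without background subtraction 2 were. Il1r1, the signalling receptor of interleukin 1, had 1.81, 1.12 and 1.20. Osmr, the oncostatin M receptor, had 1.28, 1.86 and 1.02. Among 10 tested chemokine receptors 1, Ackr1, was higher and 1, Ccr6, was lower.

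Part of the phagocyte activation genes and few marker genes of resting microglia were higher at the unadjusted p. Of 28 tested genes of pattern recognition and phagocyte activation 13 were higher at the unadjusted p, against 6.35% of all genes, and none was lower, with a median of 0.55. Of the 28, 2 were tested only through the HI channel, and after normexp correction 7 were higher and the median was 0.34. Cd14, a co-receptor for bacterial lipopolysaccharide, had ratios of 1.87, 2.64 and 2.11 (mean 2.21 ± 0.39, SD, n = 3). Gpr84, a receptor for medium-chain fatty acids, had 1.87, 2.83 and 1.90. Gpnmb, a glycoprotein of lipid-laden phagocytes, had 2.54, 1.69 and 2.16 and was at least 2.06-fold higher. All 3 genes were at 1.69 or above on each array.

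Spp1, which encodes osteopontin, had 1.21, 1.83 and 2.01, and Lgals3, which encodes galectin 3, had 0.95, 1.57 and 1.43. Tlr2, a receptor for bacterial lipoproteins, had 0.83, 1.67 and 1.19. Of 17 tested paired and Fc receptors of myeloid cells, Lilrb4a was the only one called at either p, and 1 in 17 is close to the 6.35% of all genes that were higher at the unadjusted p. The 16 other receptors had means from -0.23 to 0.55, and the median of the list was 0.17.

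All 20 homeostatic microglia markers were measured, so that the labelled brain tissue carried this cell type. P2ry12, a purine receptor by which resting microglia sense injury, had ratios of -1.60, -1.15 and -0.48. Gpr34 had -1.29, -0.78 and -0.24, and Slc2a5, a fructose transporter, had -0.79, -1.07 and -0.28. These 3 genes were lower and C1qc was higher at the unadjusted p, and the decrease was smallest on array 3 in each of them. Csf1r, with -0.20, -0.13 and -0.33, and Tmem119, with -0.84, -0.10 and 0.04, did not pass, and the list median was -0.08.

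Markers of blood leukocytes were in part too dim to test. Of 15 neutrophil markers 7 were tested, and Ly6g was not analysed here. S100a8 and S100a9 had means of 0.59 and 0.43, and Lcn2, which astrocytes also make, had 0.87, 1.86 and 1.08. Camp was lower at the unadjusted p, Mpo and Elane had means of 0.13 and -0.30, and the list median was 0.37, and -0.33, 0.40 and 0.40 on the arrays. Of 10 tested monocyte and border macrophage markers 1 was higher (median 0.05, and -0.18, 0.24 and 0.09 on the arrays), and Ccr2 was too dim to test. All 6 tested lymphocyte markers had means below 0, with a median of -0.29, and Cd2 was lower at the unadjusted p. The lymphocyte list medians were -0.67, -0.33 and 0.05 on the HI arrays and -0.32, 0.43, -0.39 and -0.35 on the MgSO4 arrays. Of 8 tested erythroid markers 1 was higher, and the globins Hba-a1, Hbb-bs and Hbb-bt had means of 0.40, 0.38 and 0.18. The part of these cells in the results above was not tested.

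Of 31 tested interferon-induced genes 16 were higher at the unadjusted p at 12 h, against 6.35% of all genes, and none was lower. The median was 0.70, and 30 genes had a mean above 0. Of the 31, 5 were tested only through the HI channel, and among those above background in both channels on all arrays 8 were higher, with a median of 0.43. The array medians were 0.36, 0.98 and 0.60, and after normexp correction the list median was 0.28, with 5 genes higher at the unadjusted p. Gbp2, a guanylate-binding protein of cell defence, had ratios of 2.13, 2.62 and 2.45 (mean 2.40 ± 0.25, SD, n = 3; adjusted p = 0.0748). The control signals of Gbp2, 67.5, 63.1 and 50.4, were all below its HI signals of 295, 389 and 275. Oasl2, an antiviral protein, had 1.68, 2.06 and 1.56. Parp14, a mono-ADP-ribosyltransferase, had 2.16, 2.30 and 1.02 and was at least 2.72-fold higher.

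Ifit3, an antiviral protein of the same program, had 1.11, 1.78 and 1.14. Isg15, a ubiquitin-like modifier, had 0.26, 1.67 and 1.32, and Usp18, the protease that removes it, had 1.80, 2.38 and 0.67. Xaf1 had 0.39, 2.77 and 1.97. Isg15 and Xaf1 were lowest on array 1, whereas Usp18 and Parp14 were lowest on array 3. Irf1, a transcription factor of the interferon pathway, and Bst2 had means of 0.38 and 0.27 without passing either test. The genes for interferon beta and interferon gamma were on the array and too dim to test.

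The promoters of these genes are shown because interferon regulatory factors are known to bind a direct repeat of GAAA. GAAA followed after any 2 letters by another GAAA, read on both strands and with overlapping copies counted, was searched in the 250 bases before the start. Of the 36 listed genes 28 have a promoter in the RefSeq table, and 13 of these genes hold the repeat (46.4%). It stands in 978 of all 32851 promoters (2.98%), counted by promoter and not by gene. The list was chosen as interferon-induced genes, so its share describes the list and not the response to HI. Gbp2 and Isg15 of that list, and Cxcl10 of the chemokines, follow on build GRCm38.p6, with the repeat in capitals, or its complement with TTTC where it lies on the other strand. Gbp2 is at chr3:142620413-142620662 on the plus strand, Isg15 at chr4:156200819-156201068 on the minus strand, where overlapping copies form a single block, and Cxcl10 at chr5:92348890-92349139 on the minus strand.
Gbp2: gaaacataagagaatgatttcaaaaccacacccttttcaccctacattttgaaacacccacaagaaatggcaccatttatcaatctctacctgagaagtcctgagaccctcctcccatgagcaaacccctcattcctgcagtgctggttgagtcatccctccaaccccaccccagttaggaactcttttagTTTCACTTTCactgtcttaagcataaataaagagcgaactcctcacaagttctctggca
Isg15: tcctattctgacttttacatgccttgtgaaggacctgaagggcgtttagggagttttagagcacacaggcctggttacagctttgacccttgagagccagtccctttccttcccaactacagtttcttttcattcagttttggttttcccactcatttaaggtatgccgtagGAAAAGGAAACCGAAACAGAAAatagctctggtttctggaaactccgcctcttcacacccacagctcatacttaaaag
Cxcl10: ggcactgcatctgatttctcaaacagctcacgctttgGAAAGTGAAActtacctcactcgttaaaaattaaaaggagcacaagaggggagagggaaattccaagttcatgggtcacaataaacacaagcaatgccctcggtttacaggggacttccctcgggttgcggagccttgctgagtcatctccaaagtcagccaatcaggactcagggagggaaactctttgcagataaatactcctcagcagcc
The repeat begins 59 bases before the start in Gbp2, 213 in Cxcl10, and 78, 72 and 66 in Isg15. The promoters of Oasl2, Xaf1 and Irf7 do not hold these letters in this window. Parp14 and Usp18 have no entry in the table.

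Of 22 tested astrocyte reactivity genes 14 were higher and 1 was lower at the unadjusted p (6.35% and 4% of all genes), with a median of 0.82, and the same counts passed the adjusted test in the shared-variance fit. Of the 22, 1 was tested only through the HI channel. Gfap, the intermediate filament protein of astrocytes, had ratios of 1.45, 1.66 and 1.78 (mean 1.63 ± 0.17, SD, n = 3; adjusted p = 0.079). Its control signals were 918, 679 and 689, and its HI signals 2500, 2150 and 2370. Timp1, an inhibitor of metalloproteinases, had 1.56, 1.79 and 1.67. Both genes differed little between arrays.

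Vim, which encodes the filament protein vimentin, had 1.25, 1.74 and 1.1, and S1pr3, a receptor for sphingosine 1-phosphate, had 1.44, 1.76 and 1.31. Serpina3n, a serine protease inhibitor, had 1.48, 1.53 and 0.97, and Cd109 had 2.61, 2.97 and 1.39. Nes, the filament protein of progenitors and reactive glia, had 1.16, 0.90 and 0.37. Stat3, a transcription factor on which reactivity is known to depend, had 0.84, 0.89 and 0.54. Cd44 had a mean of 0.54 and Tnc of -0.47, and neither passed.

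The 15 astrocyte identity genes had a median of 0.08, with 3 higher and 1 lower at the unadjusted p. Slc1a2, the main glutamate transporter, had 0.67, 0.86 and 0.52, and Slc1a3, the earlier expressed one, a mean of 0.24. Aqp4, the water channel of astrocyte endfeet, had a mean of 0.03. S100b had -0.76, -0.72 and -0.42. Atp1b2 and Slc1a2 had means of 0.80 and 0.44 on the MgSO4 arrays.

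Of 21 tested matrix remodelling genes 9 were higher at the unadjusted p, against 6.35% of all genes, with a median of 0.52. Of the 21, 2 were tested only through the HI channel, and after normexp correction 5 were higher. Lox, which cross-links collagen, had 1.03, 1.45 and 0.86, and Col4a1, a collagen of the vessel wall, had 1.65, 1.91 and 0.52. Plaur, the urokinase receptor, had 0.69, 1.68 and 0.73. Each was higher on all 3 arrays.

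Of 20 tested enzymes of cholesterol synthesis 5 were lower at the unadjusted p, and the means of all 20 were below 0. The median was -0.46, its value on the arrays was -0.41, -0.52 and -0.41, and none was higher, while 4% of all genes were lower. The same 5, Idi1, Msmo1, Mvd, Mvk and Sqle, fell in the shared-variance fit at the adjusted p. With normexp correction 18 of 20 genes were below 0. Messages of this pathway were abundant, with Msmo1 control signals of 19400 to 24600.

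Msmo1, which encodes the methylsterol monooxygenase, had ratios of -0.93, -0.93 and -0.80 (mean -0.89 ± 0.08, SD, n = 3; adjusted p = 0.079). Mvd, the mevalonate diphosphate decarboxylase one step before Idi1, had -0.89, -0.92 and -0.77. Mvk, which phosphorylates mevalonate, had -0.61, -0.92 and -0.77. On these enzymes the arrays lay close together. Sqle, which encodes squalene epoxidase, had -0.29, -0.87 and -0.77.

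Nsdhl, a sterol dehydrogenase, had -0.72, -0.57 and -0.35 on its brightest probe and -1.13, -1.53 and -1.18 on a dimmer one. Both Nsdhl probes were below 0 on every array, by different amounts. Lss, the lanosterol synthase, was closest to 0, with ratios of 0.04, 0.21 and -0.36. Hsd17b7 had a mean of -0.10 and Dhcr7 of -0.13.

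Control of the pathway rests on the SREBP transcription factors, which sterols hold inactive through the Insig proteins. Of 18 tested genes of sterol and fatty acid regulation 2 were lower and 1 was higher at the unadjusted p, with a median of -0.12. Stard4, a cholesterol transfer protein and SREBP target, had ratios of -0.66, -0.70 and -0.68, and Insig1 had -0.95, -0.63 and -0.37. The factors themselves, Srebf2 and Srebf1, had means of -0.27 and 0.12, neither past either test. Scd2, a fatty acid desaturase, was higher, with a mean of 0.79, and had a mean of 0.67 on the MgSO4 arrays.

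On the side of removal, Abca1, the cholesterol exporter, had 0.84, 0.93 and 0.63. Cyp46a1, the neuronal enzyme that turns cholesterol into 24-hydroxycholesterol, had -0.55, -0.61 and -0.63, and Soat1, which esterifies cholesterol for storage, had a mean of 0.77. Abca1 and Soat1 were higher and Cyp46a1 lower at the unadjusted p, in a list of 12 tested genes with a median of 0.19. Ch25h, which makes 25-hydroxycholesterol and was listed with the phagocyte genes, had 0.78, 0.76 and 1.42. Apoe, the lipid carrier of the brain, had a mean of 0.17.

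Promoters of the pathway are shown for the letters CCAAT, which nuclear factor Y binds beside SREBP in several of these genes. In the 250 bases before the start, on both strands, CCAAT stands in 14 of the 15 listed genes with a promoter in the table (93.3%, Acat2 being without it). It stands in 11120 of all 32851 promoters (33.8%), in 10 of 28 genes of the interferon list (35.7%) and in 4 of 14 of the CC chemokine list (28.6%). The sterol element written TCACNCCAC stands in Hmgcs1 alone among the 15 and in 1.05% of all promoters. The promoters of 3 of the lower enzymes follow on the same build, with CCAAT, or ATTGG for the other strand, in capitals. Idi1 is at chr13:8885356-8885605 on the plus strand, Mvk at chr5:114444019-114444268 on the plus strand and Msmo1 at chr8:64733579-64733828 on the minus strand.
Idi1: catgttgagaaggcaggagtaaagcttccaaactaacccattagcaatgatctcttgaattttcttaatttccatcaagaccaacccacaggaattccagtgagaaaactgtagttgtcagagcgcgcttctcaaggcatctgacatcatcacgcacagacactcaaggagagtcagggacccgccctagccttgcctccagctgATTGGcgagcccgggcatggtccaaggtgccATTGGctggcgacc
Mvk: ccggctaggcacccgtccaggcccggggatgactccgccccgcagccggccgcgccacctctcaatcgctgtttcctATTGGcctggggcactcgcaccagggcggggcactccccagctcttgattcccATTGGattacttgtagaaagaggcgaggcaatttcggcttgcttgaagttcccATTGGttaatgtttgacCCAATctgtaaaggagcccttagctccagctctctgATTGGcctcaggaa
Msmo1: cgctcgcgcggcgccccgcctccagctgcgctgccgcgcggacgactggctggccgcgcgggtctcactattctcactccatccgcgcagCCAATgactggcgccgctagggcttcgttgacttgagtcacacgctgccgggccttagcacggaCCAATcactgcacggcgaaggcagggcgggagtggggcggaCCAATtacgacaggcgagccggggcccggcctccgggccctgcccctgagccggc
Idi1 holds the letters 45 and 14 bases before the start, Mvk 5 times and Msmo1 3 times. These matches describe the windows and are not measured sites.

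**Figure D3:**
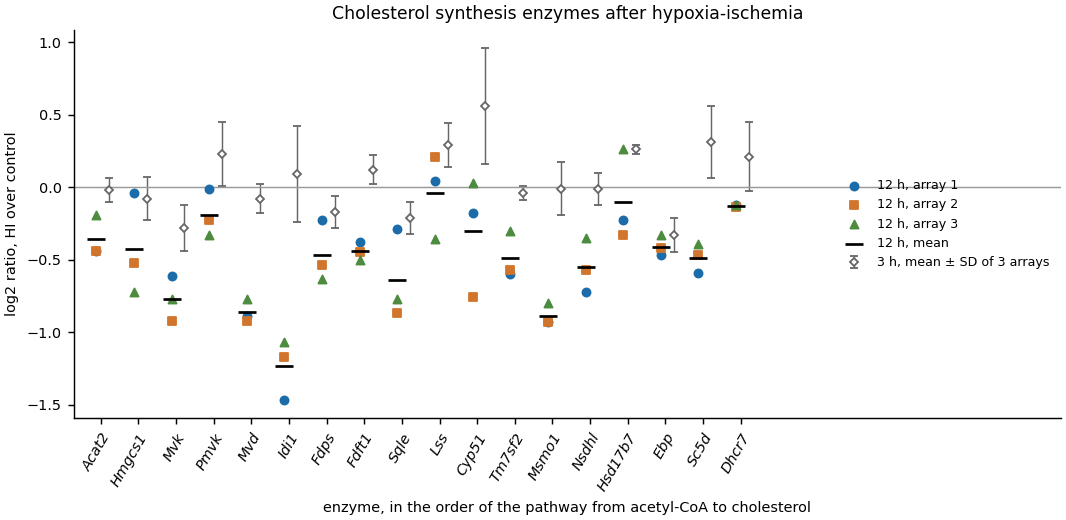
Log2 ratios of HI to control for 18 of the 20 tested enzymes of cholesterol synthesis, in pathway order. Filled symbols are the 3 arrays at 12 h, horizontal bars their means, and open diamonds with error bars the mean and SD of 3 arrays at 3 h. All means at 12 h lie below 0, from -1.23 for Idi1 to -0.04 for Lss, while the 3 h means lie on both sides of 0.

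The comparison of 12 h with 3 h asks which of these differences belong to the later time. No probe of 25401 passed the adjusted test for the difference (0%, lowest adjusted p = 0.0554, limma), and 1682 probes (6.62%) and 908 genes (6.05%) passed at the unadjusted p, 856 probes (3.37%) with a higher ratio at 12 h and 826 (3.25%) with a lower one. The count was 44 after normexp correction, 85 without background subtraction and 2 without array 3 at 12 h. Probes were included where either time passed the filter, but genes and list members only where they passed at 12 h. Genes seen only at 3 h are therefore missing from the gene shares of 3.5% higher and 2.55% lower. Members that passed only through the 12 h HI channel are counted, 5 of 31 interferon-induced genes, 2 of 15 CC chemokines, 1 of 22 astrocyte reactivity and 1 of 24 immediate early genes. All HI arrays were scanned on a single day, and array 1 at 12 h shares its slide with array 3 at 3 h, so that the difference within this slide is given beside the mean difference.

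Immediate early genes, the transcription factors and regulators induced first after a stimulus, had lower ratios at 12 h. Of 24 tested genes 20 had a lower ratio than at 3 h at the unadjusted p and none a higher one, against 2.55% of all genes with a lower ratio. The median was 1.82 at 3 h and 0.28 at 12 h, where 8 genes were still higher than in controls at the unadjusted p, 5 in the shared-variance fit and 3 after normexp correction. Fos had ratios of 5.57, 5.86 and 5.12 at 3 h and of 2.18, 3.84 and 2.04 at 12 h, without overlap, a difference of -2.83 (95% CI -3.99 to -1.67; adjusted p = 0.112) and of -2.94 within the slide. Fosb had 3.99, 3.79 and 3.10 and then 0.30, 1.06 and 0.45, a difference of -3.02 (adjusted p = 0.0673). Fos remained among the leading genes at 12 h, and Fosb was just past the fold threshold at the unadjusted p.

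Atf3, a factor of the stress response, went from a mean of 3.57 to 1.61, and Egr1 from 2.83 to 0.63. Arc and Npas4, which follow synaptic activity, had means of 0.05 and -0.01 at 12 h, against 1.55 and 2.14 at 3 h. On array 3 the list median at 12 h was -0.06, against 0.35 on array 1 and 0.82 on array 2.

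Interferon-induced genes had the opposite order, with 18 of 31 having a higher ratio at 12 h than at 3 h at the unadjusted p and none a lower one, against 3.5% of all genes. The list median was -0.17 at 3 h and 0.70 at 12 h. Gbp2 had ratios of 0.41, -0.12 and 0.36 at 3 h, all below those at 12 h, a difference of 2.19 (95% CI 1.71 to 2.66; adjusted p = 0.0554) and of 1.77 within the slide. Oasl2 had -0.64, -0.52 and -0.12 at 3 h, also a difference of 2.19, and of 1.79 within the slide.

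For astrocyte reactivity 10 of 22 genes had a higher ratio at 12 h at the unadjusted p, against 3.5% of all genes, with a list median of 0.25 at 3 h. Gfap had 0.14, 0.29 and 0.49 at 3 h, a difference of 1.32 (95% CI 0.97 to 1.68; adjusted p = 0.0754) and of 0.96 within the slide. The measured ratios of Lilrb4a differed by 2.84 (adjusted p = 0.0554), but its control signal at 12 h was not above background on any array, so the size of this difference is not determined. For Ccl4 the difference was 0.27 (95% CI -0.81 to 1.35), an interval that leaves room for a change in either direction. Of the CC chemokines 6 of 15 had a higher ratio at 12 h at the unadjusted p, against the same 3.5%, and none had a lower one.

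Among the 20 cholesterol enzymes 6 had a lower ratio at 12 h than at 3 h at the unadjusted p and none a higher one, against 2.55% of all genes with a lower ratio. The median of the list at 3 h was 0.02. Idi1 had 0.47, -0.13 and -0.06 at 3 h, above all values at 12 h, a difference of -1.33 (95% CI -1.80 to -0.85; adjusted p = 0.104) and of -1.41 within the slide.

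**Figure D4:**
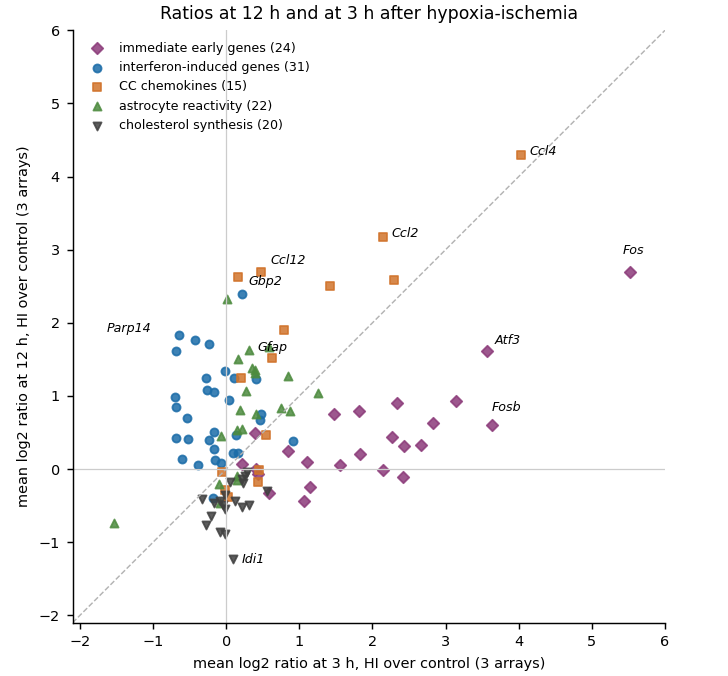
Mean log2 ratio of HI to control at 12 h (vertical) against that at 3 h (horizontal) for the genes of 5 lists, each mean over 3 arrays, with a dashed line where both are equal. Immediate early genes lie below the line, with Fos at 5.52 and 2.69, interferon-induced genes lie above it near 0 on the horizontal axis, and the cholesterol enzymes lie near 0 at 3 h and below 0 at 12 h.

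Compared with MgSO4 alone at 12 h, HI gave higher ratios of chemokines, an interferon-induced gene and Gfap. Of 25226 probes 8 (0.0317%) passed the adjusted test for the difference, all higher after HI, and 6 of them are named genes (0.04%). At the unadjusted p 1464 probes (5.8%) differed, 2.8% higher and 3% lower after HI, as did 5.44% of genes. The gene shares and list counts again cover only genes that passed the filter at 12 h after HI. Ccl4 differed by 4.35 (adjusted p = 0.0108), Ccl3 by 2.71 (0.0242), Cd14 by 2.47 (0.0321), Gbp2 by 2.34 (0.0108) and Gfap by 1.75 (0.0321). The measured ratios of Cxcl10 differed by 5.80 (adjusted p = 0.0242), a size that rests on dim signals, since its control signal was above background on 1 HI array and it was too dim to test on the MgSO4 arrays alone. On the MgSO4 arrays Ccl4 had ratios of 0.31, 0.36, -0.61 and -0.25, and Gbp2 had 0.18, 0.12, -0.14 and 0.07. The values of the 2 experiments did not overlap for either gene. A dye effect that both experiments share cancels in these differences, but the count was 0 to 6 with 1 array left out, and each MgSO4 array had a slide and a day of its own, so that experiment and slide cannot be told apart.

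Lilrb4a was too dim to test on the MgSO4 arrays alone, where its ratios spread from -1.79 to 1.17, and its difference did not pass (adjusted p = 0.15). Idi1 had 0.09, 0.09, -0.03 and -0.02 on the MgSO4 arrays and differed by -1.26 (adjusted p = 0.0807). Of the cholesterol enzymes 7 of 20 were lower after HI than after MgSO4 at the unadjusted p, against 2.82% of all genes lower. Of the interferon-induced genes 19 of 31 were higher and 1 was lower, and 2.62% of all genes were higher.

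Neuronal gene lists differed between arrays of a group. The cortical neuron list had medians of 0.51, 0.26 and -0.02 on the 3 HI arrays at 12 h and of 0.31, -0.15, 0.55 and 0.91 on the MgSO4 arrays, and excitatory synapse genes had medians of 0.58, 0.06 and -0.03 after HI. Grin2b, an NMDA receptor subunit, had ratios of 1.57, 1.08 and 0.48, highest on array 1 and lowest on array 3. Of 17 cortical neuron genes 3 were higher and none lower at the unadjusted p, of 26 excitatory synapse genes 3 and 0, and of 24 genes of GABAergic neurons and neuropeptides 0 and 0. Across probes, array 1 correlated at 0.62 with MgSO4 array 4 and at 0.21 with array 3 of its own group. What these arrays have in common was not tested.

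**Figure D5:**
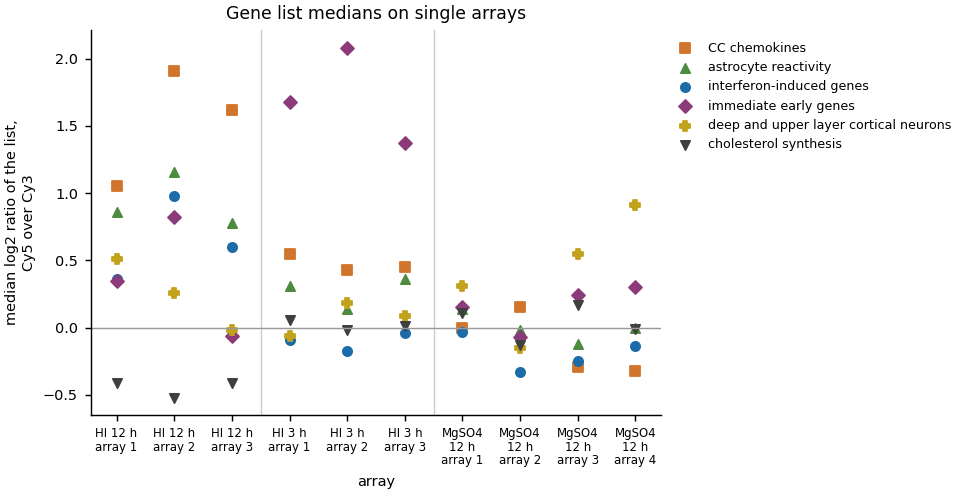
Median log2 ratio of Cy5 to Cy3 in 6 gene lists on each single array, for HI at 12 h, HI at 3 h and MgSO4 without injury at 12 h. The lists of CC chemokines, astrocyte reactivity and interferon-induced genes are above 0 and cholesterol synthesis is below 0 on all 3 HI arrays at 12 h, while cortical neuron genes spread from -0.02 to 0.51 there and from -0.15 to 0.91 on the MgSO4 arrays.

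In the oligodendrocyte lineage 3 of 18 tested genes were higher and 1 was lower. Cspg4, the NG2 proteoglycan of oligodendrocyte progenitors, had 0.78, 0.74 and 0.78. Mbp, the myelin basic protein, had 1.1, 0.80 and 0.23 on its brightest probe, and its other 2 tested probes had the opposite sign, with a mean of -0.71 on one of them. The direction of Mbp therefore depends on the probe.

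Genes that low oxygen induces through HIF were near their control level at 12 h, with 3 of 28 higher at the unadjusted p, none lower, and a median of 0.01. Adm, a vessel dilating peptide, had 0.23, 1.64 and 0.58 at 12 h and a mean of 2.18 at 3 h, and Vegfa, the vessel growth factor, had a mean of 0.20. Of 28 tested p53 targets and apoptosis genes 5 were higher, among them Tnfrsf12a with 0.75, 1.79 and 1.45 and Fas with 0.67, 1.43 and 0.82, and Cdkn1a had a mean of 0.62. Counts close to the 6.35% of all genes were found for 23 redox and metal response genes, of which 2 were higher, the metallothioneins Mt1 (0.77, 1.19 and 0.77) and Mt2 (0.98, 1.30 and 0.77), and for 17 heat shock chaperones, of which 1 was higher, Hspb1. Of 24 genes of the integrated stress response 3 were higher. The 20 tested cell cycle genes gave 0 in either direction. In the remaining lists 3 of 21 genes of vesicle release were higher and 1 lower, 3 of 17 endothelial genes and 3 of 17 genes of endothelial activation were higher and none lower, 1 of 16 complement genes was higher and 2 were lower, and 1 of 14 glucocorticoid response genes passed in each direction.

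Of 16 tested growth factors, 2 of them tested only through the HI channel, 4 were higher and none lower. Gdf15, a stress-induced cytokine, had 1.29, 1.79 and 1.1, and Cntf, a factor made by astrocytes, had 0.81, 1.01 and 1.09. Igf2 had 0.74, 1.37 and 1.25. Of 11 choroid plexus genes, 2 of them tested only through the HI channel, 4 were higher at the unadjusted p, against 6.35% of all genes, and 2 after normexp correction, Ttr with 0.46, 1.16 and 0.68 and Aqp1 with 0.88, 1.59 and 0.67 among the 4, and Ttr had a mean of 0.95 on the MgSO4 arrays. A difference in how much choroid plexus the pools held was not tested.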

How the data were processed

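RNA of the Cy5 and Cy3 pools was hybridized together on Agilent whole mouse genome arrays with 44397 features. The authors deposited each array's spot intensities from Feature Extraction 10.5.1.1, background-subtracted, spatially detrended and dye-normalized by linear and LOWESS steps. The series table that the authors deposited holds the log10 ratio of the same arrays, which equals the ratio in the array files, and 21 of its columns, of arrays not analysed here, were not used. Groups were taken from the titles and channel labels.

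The log2 ratio of the processed Cy5 to Cy3 signal was computed after outlier spots were left out, with the mean taken over repeated spots. A probe was tested where 1 channel or the other was well above background on 2 or more of 3 arrays, with limma 3.58.1 (lmFit, eBayes; R 4.3.3), the mean ratio against 0, or as a contrast between groups. Calls needed a fold change of at least 1.5 together with p below 0.05 after Benjamini-Hochberg adjustment. For bounds, mean intensities were first scaled between arrays by quantiles, with ratios unchanged, and the lowest signal above background of each array stood in for dimmer ones. For Il6, Ccl11, Cela2a, Reg3g, Mcpt2, Txk and Pabpc4l the brighter channel was above background on 2 of 3 arrays. The mean of all 3 was used, so these bounds are not strict. The bounds hold for the processed signals and not for other background corrections. Of 39429 probes 27427 (69.6%) carried 1 gene symbol. The genes named are Ccl4, Lilrb4a and Idi1, the 15 highest and 15 lowest probes with a single sign on all arrays, and, in each of 38 lists, members called, those with the largest ratios and those with a defining role, and further genes that were chosen after their values were seen. The members and lists were chosen with earlier results of these data known. The labels call the arrays biological replicates. Promoters came from RefSeq (GRCm38.p6), whereas the array files name mm9, and no coordinates were passed between them. Alternatives were other background corrections, scalings, filters, variance models, the methods' t-test, slide or replicate blocks and leaving out arrays. The script was tested on simulated data. Some genes of the rule are not reported here.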

Additional observations from a re-analysis of the deposited data

Results flagged for a closer look

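Of 248 named genes, described above or in the lists, 9 passed at the unadjusted p at 12 h with 1 sign on all arrays and had the opposite sign on all 3 arrays at 3 h. The share of such genes among all tested genes was not counted, and these 9 were picked for their difference between the times. The difference between the times was tested with limma, and none passed the adjusted test, the adjusted p lying between 0.0554 and 0.167. Of the interferon-induced genes, Oasl2 was at 1.77 ± 0.26 (SD, n = 3) at 12 h and at -0.43 at 3 h, Parp14 at 1.83 ± 0.70 and -0.64, Usp18 at 1.62 ± 0.87 and -0.68, and Isg15 at 1.08 ± 0.73 and -0.26. For Parp14 the control signal at 12 h was not above background on any array, so the size of this change is not determined. The sterol control genes had the reverse order, Stard4 at -0.68 ± 0.02 and then 0.33 at 3 h, and Insig1 at -0.65 ± 0.29 and 0.59. Tsc22d3, a target of the glucocorticoid receptor, was at -0.62 ± 0.05 at 12 h and at 0.17 at 3 h. Gpr17, a receptor of early oligodendrocytes, was at 0.67 ± 0.36 and -0.22, and Slc4a5, a bicarbonate transporter of the choroid plexus, was at 1 ± 0.26 and -0.26.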

How the results depend on the processing

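The count of 2 called probes depends on the processing. It was 544 with normexp and loess (77.9% higher), 753 without background subtraction (72.1% higher), 371 with probes above background in both channels on all arrays, 2324 with the variance shared with the 3 h arrays, 2629 at the unadjusted limma p and 1258 by the methods' t-test at its unadjusted p. It was 0 without a filter on dim probes (lowest adjusted p = 0.176), with an intensity trend (0.127) and by the methods' t-test after Benjamini-Hochberg adjustment (0.176). With 1 array left out it was 20 to 3927, 119 without array 1, 20 without array 2 and 3927 without array 3, the array that correlated least with array 1. The count at the unadjusted p, 2629, was 866 with normexp, 1089 without background subtraction, 1258 by the methods' t-test, and 2188 to 4781 with 1 array left out, 4781 without array 3. Ccl4 was called in 11 and Lilrb4a in 10 of the 14 alternatives, including each of the 3 that leave out an array, with adjusted p up to 0.225. Lilrb4a has no value where both channels must be above background.

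For 12 h against 3 h, the count of 0 was 44 with normexp and 85 without background subtraction, and 0 to 2 with 1 array left out. For HI against MgSO4, the count of 8 was 196 with normexp, 29 without background subtraction, 3 without the filter on dim probes and 0 to 6 with 1 array left out, 0 without HI array 2 or any of MgSO4 arrays 1, 2 and 3. Replicate numbers do not pair these samples. Deviations of same-numbered arrays correlated at -0.23, -0.04 and -0.22 between 12 h and 3 h and at -0.13, -0.09 and -0.23 between HI and MgSO4. With the replicate block the counts were 0 (lowest adjusted p = 0.305) and 0. Slide as a random block left the 12 h against 3 h count at 0, and it could not be fitted for the main comparison, with 3 arrays, or for MgSO4, where each array has its own slide.

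Of 1736 values of named genes under the alternatives 1572 moved by less than the spread between arrays, 163 moved by more and 1 reversed, Mbp, at -0.71 on the probe with the largest ratio. Leaving out 1 of 3 arrays cannot move a mean by more than that spread. Those settings count as unmoved by construction, and the 1572 is not a measure of robustness. Most that moved did so with normexp or without background subtraction, where Ccl4 had 2.25 and 2.78 and Lilrb4a 1.11 and 1.57. Signal over background limits the dim genes, whose decreases and increases are bounds.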
